A study of Oryza sativa with 2 samples.

Results

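The 55 genes described here encode rice proteins of auxin response, transport and synthesis. They were chosen by name: every gene on the array whose RefSeq symbol or synonym was IAA, ARF, SAUR, PIN or YUCCA with a number, or GH3 with a hyphen, point or number. This gave 25 IAA, 16 ARF, 9 GH3, 4 PIN and 1 YUCCA genes, and no SAUR gene, out of 15798 genes measured. RNA of rice seedlings (Oryza sativa) treated with 5 µM jasmonic acid (JA), a hormone of wounding and defence, was hybridised with RNA of untreated control seedlings on each of 2 two-colour arrays. The plants grew on MS medium and were 7 days old. The submitters' titles name shoots, while their design text names whole seedlings. One field describes the exposure itself as lasting 7 days. JA RNA carried Cy5 and control RNA Cy3 on array 1, and JA RNA carried Cy3 and control RNA Cy5 on array 2. Both arrays bear one replicate number and count as 1 replicate, so no p-value was computed and all values describe these arrays alone. Strain, number of plants and pooling are not stated in the labels.

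Auxin is a growth hormone whose response runs through a short chain of proteins. Aux/IAA proteins (IAA) bind auxin response factors (ARF), which sit on the promoters of auxin genes, and hold them in check. When auxin joins an Aux/IAA protein to its receptor, the Aux/IAA protein is broken down and the factors are released. GH3 enzymes join auxin or jasmonate to amino acids, PIN proteins carry auxin across membranes, and YUCCA enzymes make it. Many Aux/IAA and GH3 genes are themselves switched on by auxin. GH3.5, also named JAR1, belongs to the jasmonate side, since it makes the jasmonate-isoleucine conjugate that the jasmonate receptor reads.

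Each array gave 1 ratio per spot, here on the log2 scale, and no level of either RNA. Which dye or RNA is the numerator is not stated, so no value below is an increase or a decrease by JA. The ratio on array 1 minus that on array 2, divided by 2, is called the swap mean. It is above 0 where the ratio was higher on array 1. Were Cy5 the numerator throughout, a value above 0 would be higher in JA seedlings, and with Cy3 as numerator every swap mean would change sign. If the columns are instead JA over control on both arrays, the swap mean holds dye effects of the probes and the mean of the 2 arrays holds the treatment. Over all 22575 spots the arrays correlated at 0.54 (Pearson, across spots, which share the 2 RNA samples), and at −0.72 in the brightest of 10 equal groups of spots. Over the 55 auxin genes the value was 0.47. Over the 27 of them in the brighter 2 of 4 equal groups of genes it was −0.28, against −0.52 for all genes there. Gene names rest on a rearranged spot grid that no source states.

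Brightness was read from the whole numbers behind each ratio, once common factors are cancelled, as the log2 of their geometric mean. It is a lower bound on the signal, so a spot called dim here may be brighter than its value. The 55 auxin genes had a median brightness of 5.45, against 5.47 for all genes. All genes were split into 4 equal groups from dim to bright, and 17, 11, 12 and 15 of the auxin genes fell in these. A technical spread was taken from the part the arrays share: the scaled median absolute deviation, over genes, of the mean of the centred arrays. It is a spread from gene to gene and does not measure error between the arrays. This technical spread was 0.39 in the dimmest group, 0.21 and 0.16 in the next, and 0.15 in the brightest. If the columns are JA over control, it is not technical, since the mean of the arrays then holds the treatment. Green-tissue markers were bright, with all 6 that were found in the brightest group. Of 8 genes found by root marker names, 1 lay in the brightest group and 3 in the dimmest. One of these 8, LOC4330436, shares the name PT2 with a phosphate transporter but is also listed as GRF4. The list thus holds 7 root markers proper.

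The largest differences between the arrays belonged to GH3.9 and IAA2. No auxin gene was 2-fold apart from 1 in opposite directions on the 2 arrays: 0 of 55 were at least 2-fold above 1 on array 1 and 2-fold below on array 2, against 0.5% of all genes, and 0 of 55 were the other way round, against 0.165%. A swap mean of at least 1.5-fold in size was reached by 2 of 55, against 4.04% of all genes. The share is close to the background. The genes that stood out did so by small amounts on bright spots, where the technical spread is smallest.

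**Figure D1:**
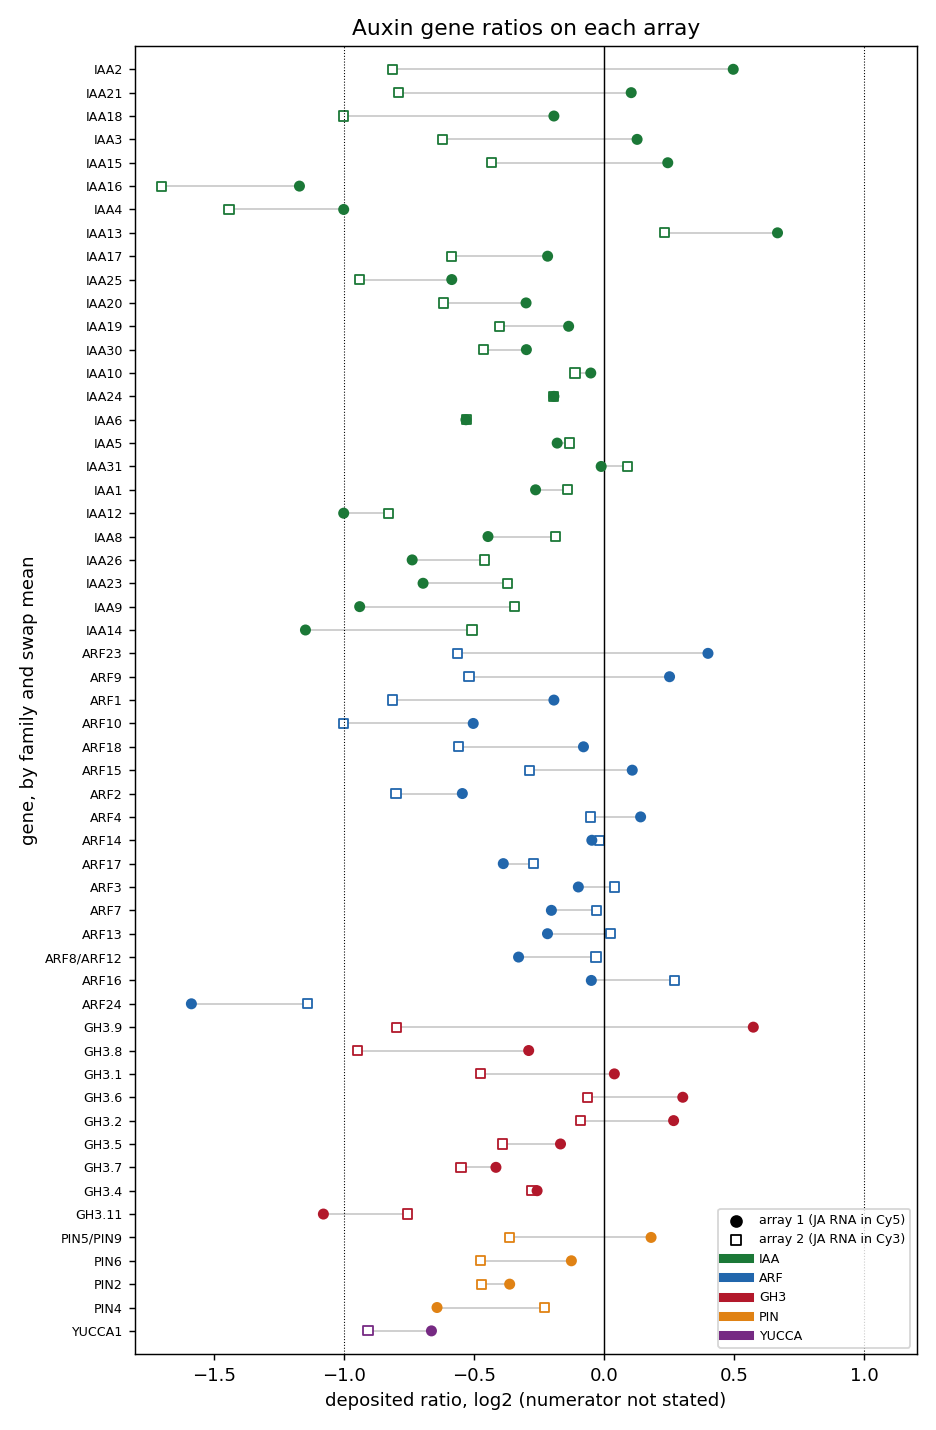
Deposited log2 ratio (x axis) of each of the 55 auxin genes (rows, by family and then by swap mean) on array 1 (filled circles) and array 2 (open squares), with dotted lines at 2-fold. The widest gaps are at GH3.9 and IAA2, and no gene has its 2 symbols beyond opposite dotted lines.

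For GH3.9, of the GH3 family, the log2 ratio was 0.57 on array 1, against −0.80 on array 2. The whole-number ratios behind these were 61/41 and 42/73. Its swap mean was 0.69, a size of 1.61-fold and 4.37 technical spreads of its brightness group. A swap mean of that size or more was found in 2.92% of all genes and in 3.14% of genes of its group. It was the member farthest from 0, and its ratio crossed 1 between the arrays.

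The other GH3 genes lay mostly on the same side at smaller sizes. GH3.8, which in rice joins auxin to amino acids, had −0.29 and −0.95 (array 1 and array 2), which gave 0.33 as swap mean, on a dim spot. GH3.1 had 0.04 and −0.48, a swap mean of 0.26. GH3.6 had 0.30 and −0.06 and GH3.2 0.27 and −0.09, with swap means of 0.18 each. These 4 swap means were all under 2 technical spreads. GH3.5 (JAR1), the jasmonate-conjugating enzyme, had −0.17 and −0.39, a swap mean of 0.11 or 0.73 technical spreads on a bright spot. GH3.7 and GH3.4 had swap means of 0.07 and 0.01, and GH3.11, with −1.08 and −0.75, had −0.16. In all, 8 of the 9 GH3 genes had a swap mean above 0, against 51.7% of all genes, and their median was 0.18, or −0.18 with the sign turned, against 0.007 for all genes. The 2 probes of GH3.7 gave 0.02 and 0.11.

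Aux/IAA genes on bright spots held 4 of the genes with a swap mean of at least 2 technical spreads. IAA2 had 0.50 on array 1 and −0.81 on array 2, from ratios of 244/173 and 263/462. Its swap mean was 0.65, a size of 1.57-fold and 4.31 technical spreads, and 5.04% of genes in the brightest group reached that size. IAA21 followed with 0.10 and −0.79, a swap mean of 0.45 or 2.94 spreads. IAA3 had 0.13 and −0.62, a swap mean of 0.37 or 2.46 spreads, and IAA15 had 0.24 and −0.43, a swap mean of 0.34 or 2.23 spreads. Sizes as large were common in the brightest group: 11.7% of its genes reached that of IAA21, 16.2% that of IAA3 and 18.9% that of IAA15. All 4 had a ratio above 1 on array 1 and below 1 on array 2.

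The remaining bright Aux/IAA genes stayed under 2 technical spreads. IAA13, the brightest of all 55, also listed as IAA1, had 0.67 and 0.23, a swap mean of 0.22. It was the only one of the 55 with a ratio above 1 on both arrays, which 4.1% of all genes had. IAA19 had a swap mean of 0.13, IAA10 0.03, IAA5 −0.02 and IAA31 −0.05. Within 1 family, then, the 9 genes of the brightest group ran from −0.05 to 0.65, and none of them lay on the far side of 0 by more than 0.34 spreads.

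Dim Aux/IAA genes varied as widely, beside a larger technical spread. IAA18 had the third-largest swap mean of the family, 0.40, from ratios of 7/8 and 1/2, and this was 1.04 technical spreads. IAA16 had −1.17 and −1.70 (ratios of 4/9 and 4/13) and IAA4, also listed as IAA20, had −1 and −1.44 (1/2 and 7/19), with swap means of 0.27 and 0.22. Both ratios of each were thus at least 2-fold below 1. On the other side stood IAA14 with −1.15 and −0.51, a swap mean of −0.32 or 1.49 spreads, and IAA9 with −0.94 and −0.34, a swap mean of −0.30 or 1.39 spreads. The other 11 Aux/IAA genes of the dimmer 3 groups lay between −0.16 and 0.18. Over the family 15 of 25 had a swap mean above 0, with a median of 0.08. The 2 probes of IAA8 gave −0.07 and −0.19.

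**Figure D2:**
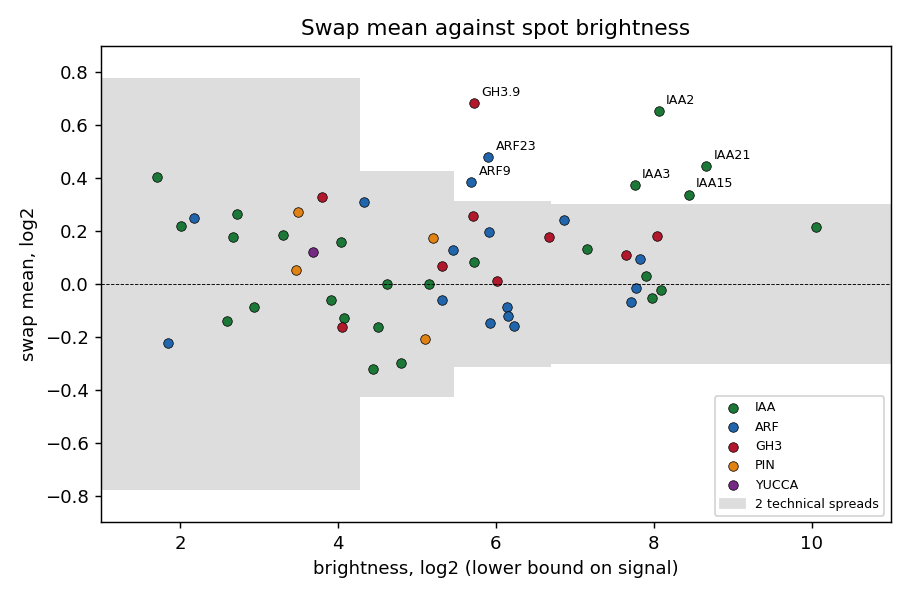
Swap mean (log2, y axis) of the 55 auxin genes against spot brightness (log2, a lower bound on signal, x axis), coloured by family, with a grey band of 2 technical spreads in each brightness group. The 7 labelled genes lie outside the band, all above it.

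Auxin response factors fell on both sides of 0. ARF23, also listed as ARF1, had 0.40 on array 1 but −0.56 on array 2, a swap mean of 0.48 or 3.07 technical spreads. Its 2 probes agreed in sign, with swap means of 0.39 and 0.57. ARF9 had 0.25 and −0.52 (ratios of 25/21 and 97/139), a swap mean of 0.39 or 2.46 spreads. In their brightness group, 6.28% of genes reached the size of ARF23 and 9.47% that of ARF9. LOC4327785, listed as ARF1 and ARF16, had −0.19 and −0.81, a swap mean of 0.31 on a spot of lower brightness. ARF10 had −0.50 and −1 and ARF18 −0.08 and −0.56, with swap means of 0.25 and 0.24, and neither reached 2 spreads.

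The rest of the factors were smaller still. ARF15, named ETTIN1 after an Arabidopsis factor of flower development, had a swap mean of 0.20, and ARF2, named ETTIN2, 0.13. ARF4, the brightest factor, had 0.14 and −0.05, a swap mean of 0.10. ARF14 had −0.01, ARF3 −0.07, ARF7 −0.09 and ARF13 −0.12. ARF24, on a dim spot, had −1.58 and −1.14 (1/3 and 5/11), a swap mean of −0.22. In all 8 of 16 factors had a swap mean above 0, the share of the background, with a median of 0.04.

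Among the factors, a group counted as activators in rice for their glutamine-rich middle region was set apart after the values had been seen. The 3 on the array had swap means of −0.16 (ARF16), −0.15 (LOC4337363, listed as ARF8 and ARF12) and −0.06 (ARF17), and both probes of LOC4337363 were below 0, at −0.18 and −0.11. The other 13 factors ran from −0.22 to 0.48 with a median of 0.13. The 3 values lie within the range of the others, and each is at most 1.02 technical spreads.

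Transport and synthesis genes were few and dim. PIN2, an auxin exporter of the root, had −0.36 and −0.47, a swap mean of 0.05. LOC4327533, listed as PIN5 and PIN9, had 0.18 and −0.36, or 0.27 as swap mean, from a dim spot. PIN6, also listed as PIN5A, had 0.17. PIN4, also listed as PIN5C, had −0.64 and −0.23, a swap mean of −0.21. The auxin synthesis gene YUCCA1 had −0.66 and −0.91, a swap mean of 0.12. None of these 5 reached 1 technical spread.

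**Figure D3:**
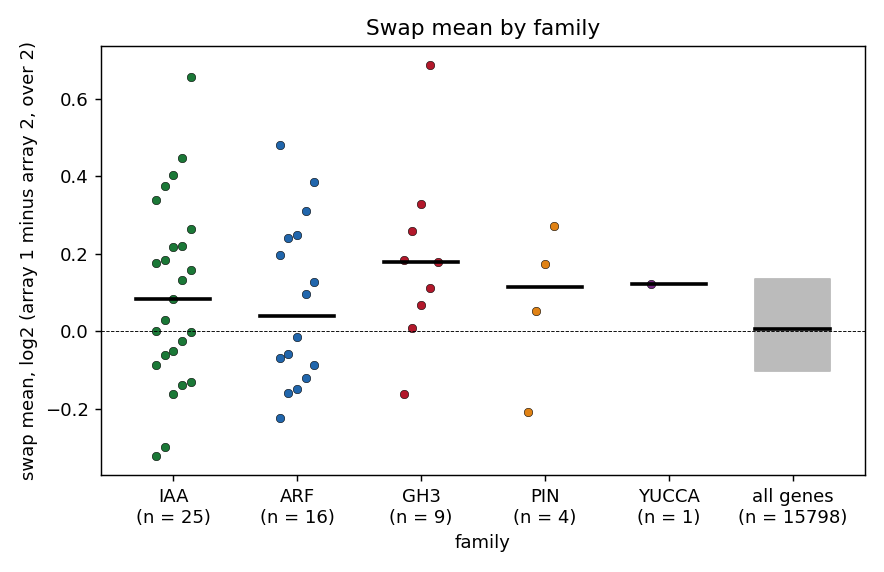
Swap mean (log2, y axis) of each gene by family, with a black bar at the family median, and for all 15798 genes the median (bar) and the middle 50% of genes (grey box). The GH3 median of 0.18 is the highest of the families with several genes, and every family overlaps the box of all genes.

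Over the whole list, the swap mean was at least 2 technical spreads of its brightness group in 7 of 55 genes, a threshold set after the values had been seen, against 10.5% of all genes. The 7 were GH3.9, IAA2, IAA21, IAA3, IAA15, ARF23 and ARF9. All 7 were above 0, which 6.35% of all genes were, and 0 of 55 were below 0, against 4.15% of all genes. All lay in the brighter 2 groups, where the technical spread is smallest, as did 1391 of the 1658 such genes in all. Within those groups 7 of 27 auxin genes passed, against 1391 of 7899 genes. With the spread of all genes in place of that of the group, 2 of the 7 were left, GH3.9 and IAA2.

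Over the 55 genes, the share past this threshold was near the background, while the side was not evenly filled. Of the 27 auxin genes in the brighter 2 groups, 19 had a swap mean above 0, against 50.1% of all genes there. Of the 28 in the dimmer 2 groups, 16 did, against 53.2%. After each array was centred on its median, 12 of the 27 brighter genes were above it on array 1 and below it on array 2, against 20.5% of all such genes. The opposite held for 1 of the 27, LOC4337363, against 20.6%. Over all 55 the counts were 18 and 4, against 19.1% and 17.5% of all genes. Genes of 1 pathway may vary together within 1 RNA sample, and this was not tested. The median of the 55 was 0.11, or −0.11 with the sign turned, against 0.007 for all genes. Of the 55, 34 lay above the median gene by the swap mean. By the plain mean of the arrays, which would hold the treatment if the columns are JA over control, 24 of 55 did.

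Taken as deposited and without centring, 13 of 55 genes had a ratio above 1 on array 1 and below 1 on array 2, against 14.7% of all genes. In 4 of 55 the ratio was below 1 on array 1 and above 1 on array 2, against 12.6%. These 4 were ARF3, ARF13, ARF16 and IAA31. In 37 of 55 both ratios were below 1, against 66.7%, a share close to the background. At least 2-fold lower on both arrays were 3 of 55, IAA4, IAA16 and ARF24, against 3.85% of all genes. All 3 lay in the dimmest group, as did 594 of the 609 such genes in all. No auxin gene was 2-fold higher on both, against 0% of all genes.

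**Figure D4:**
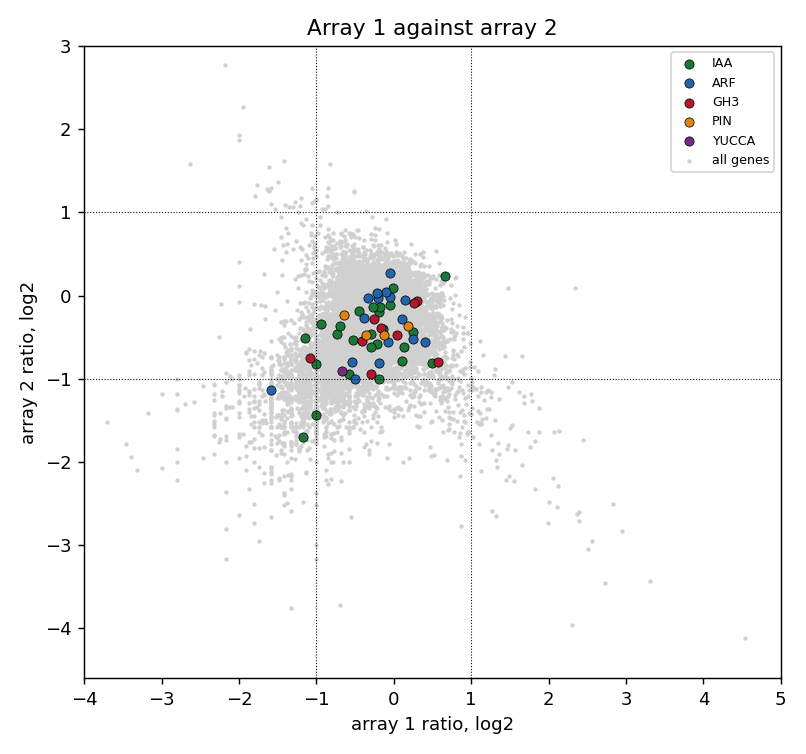
Log2 ratio on array 1 (x axis) against array 2 (y axis) for the 55 auxin genes (coloured by family) and all 15798 genes (grey), with dotted lines at 2-fold on each axis. The auxin genes lie within the main cloud, with 3 in the lower left field beyond 2-fold on both arrays and none in the other 3 corner fields.

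In 22 of 55 genes the centred swap mean was larger in size than the centred mean of the arrays, against 36.6% of all genes. Of the 4 auxin genes with over 1 probe, none had probes that differed in the sign of the swap mean, against 41.8% of such genes in all.

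Other genes of auxin receptors and co-repressors, transport, synthesis, turnover and root targets were looked up by name, and 17 were found. No receptor was found by these names, so no receptor value is given. A receptor listed under another name may still be on the array. None of the 17 reached a swap mean of 1.5-fold in size, against 4.04% of all genes. Their median was 0.08, and 10 of 17 were above 0, against 51.7% of all genes, so both counts are near the background. The nearest was ILL5, of the family of enzymes that release auxin from its amino acid conjugates, with 0.36 on array 1 but −0.63 on array 2, a swap mean of 0.49. The other 5 ILL genes ran from 0.02 to 0.39 (ILL2, on a dim spot), and none of the 5 reached 2 technical spreads. FIB, of the enzymes that make the precursor used by YUCCA, had 0.16, and the co-repressor TPR2 had 0.24. LA1, a regulator of shoot gravity response, had 0.21. On the other side lay ASA1, a subunit of the enzyme that opens tryptophan synthesis, with −0.22, the kinase PID with −0.11 and ASB1 with −0.10. DAO, which oxidises auxin, had −0.09, and WOX11, a factor of crown root growth, had −0.03. ASP1 had −0.08, and its synonym OSAP1 leaves unsure that it is the co-repressor of that name.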

How the data were processed

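RNA of JA-exposed and control seedlings was compared on 2 dye-swapped Agilent arrays. Per the labels, images were read with a GenePix scanner and program, and the authors normalized the data in GeneSpring version 4. They deposited a log10 ratio for every spot (22575, none missing). The numerator, filters and background correction are not given in the sources used. The medians are −0.0902 and −0.0954, so centring is absent. The values of the auxin genes are ratios of whole numbers, such as 7/8 and 1/2 for IAA18, and show no scaling factor. Whether the stated normalization was applied to the deposited values is not given. Direction is unknown because the numerator is not given.

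Values were multiplied to log2 (Python 3.11.15, pandas 2.3.3). Whole-number ratios were recovered within 6e-10 (log10). Spot numbers did not pair with the annotation, so names use a grid with 215 lines, each of 105 spots, that is transposed and reversed along each axis. Of 228 spots brighter than 4.5 whose log2 ratios both fell under −2.2, this grid puts 0 on features with a gene, against 85.1% by spot number. Over 1690 pairs of probes for 1 gene, Spearman's rho was 0.30 with the grid and 0.01 without. A gene is the mean of its probes. All 17839 features with 1 gene matched RefSeq (ASM3414082v1) by gene number, and 21 with several genes were left out. A member with several names takes the one that no other member holds.

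Members and lists were chosen with earlier results of these data known. Named genes are up to 6 per family by size of swap mean, the brightest, and those 2-fold from 1 on both arrays. Others are named to account for the list. The steps were tested on simulated data with bright spots, large effects and no dye bias. That test does not cover small differences or dim spots. No precision beyond the 2 arrays can be given.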

Additional observations from a re-analysis of the deposited data

How the results depend on the processing

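The count of 0 genes 2-fold apart in opposite directions was 0 in either direction with centred arrays, at 1.5-fold and 3-fold, with the brightest probe of a gene and without the dimmest group of genes. At 3-fold and without the dimmest group, the count could not rise above 0. With the sign of array 2 turned, 3 genes moved to the array 2 side, by construction those lower on both. The 3 genes lower on both became 0 when centred, 7 at 1.5-fold, 0 at 3-fold, 0 without the dimmest group and 0 with array 2 turned. The 2 genes at 1.5-fold by the swap mean became 13 with array 1 alone, 18 with array 2 alone and 14 with the plain mean, where 23.6%, 26.1% and 18.5% of all genes passed. The 34 genes above the median gene became 24 with the plain mean. The median of 0.11 was −0.202 with array 1 alone, 0.464 with array 2 alone and sign turned, and −0.300 with the plain mean, where the median of all genes was −0.272, 0.300 and −0.263. With names by spot number it was −0.0273; centring, scaling, probe choice and brightness left it between 0.0895 and 0.111. The 7 genes at 2 technical spreads became 2 with the spread of all genes. Median brightness of 5.45 was 4.88 on array 1 and 5.87 on array 2. Of 27 genes named by rule, 0 changed sign with centring or scaling. Centring alone could turn none of them, since it moved every swap mean by the same small amount. The smallest of the 27 in size, that of PIN2, went from 0.053 to 0.045. Without centring, 10 changed with array 1 alone, 5 with array 2 alone and 19 with the plain mean. With centring, 34 of the 55 were above 0 with array 1 alone and 35 with array 2 alone and sign turned, against 35 by the swap mean. Yet 16 of the 55 lay above the median on both centred arrays and 16 below on both. For these genes, array 1 and array 2 with its sign turned lay on opposite sides of 0. The choice of current symbols without synonyms left 0 members and gave no value. The technical spread and its alternative, and counts above 0, were chosen after seeing the data. No paired analysis was possible because both arrays belong to a single replicate.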

Other observations

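IAA30 and IAA31 follow each other in RefSeq gene order on chromosome 12, the 1 pair of members at most 10 places apart. The log2 ratio of IAA30 was −0.30 on array 1 and −0.46 on array 2, with 0.08 as swap mean. That of IAA31 was −0.01 and 0.09, with a swap mean of −0.05. Both swap means were under 1 technical spread.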
